A study of Mus musculus with 4 samples.

Results

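The collagen genes of the mouse lung were followed here as a family. They were chosen by name alone, as every gene whose symbol consists of Col, a type number, the letter a and a chain number. Of 47729 genes in the count files, 44 met this rule. Of these, 40 had enough reads to be tested and 4 (Col2a1, Col9a1, Col9a2 and Col10a1) did not. Whole-lung polyadenylated RNA was sequenced in 4 libraries from BL/6 mice of the Control (Rosa) genotype, which both groups share. The 2 Normoxic libraries were pools of 3 females (replicate 1) and of 1 female and 2 males (replicate 2). Each of the 2 Sugen-Hypoxic libraries was a pool of 2 males given Sugen, an inhibitor of VEGF receptors, and kept in hypoxia, a combination used to model pulmonary hypertension. The sources used here do not state the age of the mice, the dose of Sugen or the length of the hypoxia, and the KCNK3 mutations named in the series' title were not analysed here.

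Collagens are extracellular proteins in which chains wind into a triple helix, and the class of a chain sets what the helix builds. Fibrillar collagens form the banded fibrils that give airway walls, vessel walls and interstitium their tensile strength, while type IV collagen forms the sheet-like network of basement membranes under epithelium and endothelium. FACIT collagens sit on the surface of fibrils, type VI collagen forms beaded filaments around cells, type VIII collagen forms short-chain networks in vessel walls, and the transmembrane collagens span the plasma membrane. Chains are hydroxylated and folded in the endoplasmic reticulum, secreted, trimmed of their end propeptides, crosslinked by lysyl oxidases and in time degraded by metalloproteinases and cathepsins.

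Levels are counts scaled to 1000000 per library with TMM factors (CPM), and levels of different genes are compared only as CPM per kb of exon. The libraries held 57.3 to 67.1 M gene counts. The extraction text names kidneys, whereas the source label gives lung. The lung marker Sftpc was at 11254 to 12416 CPM and the kidney marker Umod at 0 to 0.124 CPM. Xist, expressed from the inactive X chromosome, stood at 494 and 149 CPM in the normoxic pools and at 0.505 and 0.512 CPM in the treated pools, as the sexes listed for the pools would give. The treatment therefore cannot be told apart from the sex of the animals. In whole lung, fewer cells of a type and less RNA per cell cannot be told apart either. Adjusted p values are from edgeR's quasi-likelihood test with Benjamini-Hochberg adjustment over the 18783 genes tested, with a threshold of 0.05, and measure the spread between 2 pools a group. Fold changes are Sugen-hypoxia over normoxia.

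Collagen transcripts as a whole took a larger share of the treated libraries. All 44 genes together held 0.66 and 0.735% of gene counts in the normoxic pools and 0.921 and 1.18% in the treated pools. Both treated pools were above both normoxic pools, and treated replicate 2 was the highest of the 4. The mean share was 0.698% in normoxia and 1.05% in Sugen-hypoxia, a comparison in which 2 against 2 libraries cannot give an exact permutation p under 0.33. Fibrillar chains made up 29.4 and 31.3% of collagen counts in normoxia and 32.7 and 39.8% after treatment. Type IV chains made up 45.2 and 44.0% in normoxia and 46.4 and 40.0% after treatment, so their share of the collagen pool overlapped between groups although their summed level did not. Of all gene counts, fibrillar chains took 0.194 and 0.23% in normoxia against 0.301 and 0.467% in treated lungs, and type IV chains 0.299 and 0.323% against 0.428 and 0.47%. The 5 genes Col1a1, Col1a2, Col3a1, Col4a1 and Col4a2 alone held 60.4 and 61.5% of collagen counts in normoxia and 67 and 68.7% in treated lungs.

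**Figure D1:**
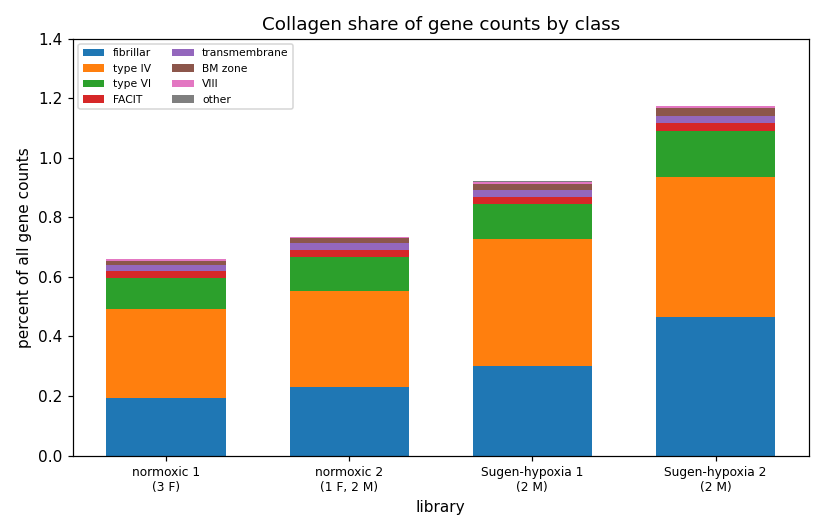
Share of all gene counts, in percent, held by each collagen class in the 4 libraries, as stacked bars from 0; F and M give the number of females and males in each pool. BM zone stands for Col18a1, Col15a1 and Col7a1, and VIII for the short-chain class. The whole bar goes from 0.66 and 0.735% in the normoxic pools to 0.921 and 1.18% in the treated pools, mostly through the fibrillar and type IV segments.

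Of the 40 tested members, 9 rose and 0 fell in Sugen-hypoxia, where 5.51% of all tested genes rose and 6.01% fell. The 9 were Col3a1, Col5a2 and Col24a1 among the fibrillar chains, Col4a1 and Col4a2 of type IV, Col18a1 and Col15a1 of the basement membrane zone, Col8a1 and Col28a1. The median log2 fold change of the 40 was 0.20, beside -0.004 over all genes tested, and 26 were above 0 and 14 below. In 21 members both treated libraries lay above both normoxic ones, in 7 they lay below and in 12 the groups overlapped. Among all genes tested those shares were 30.0% above and 31.7% below. At an unadjusted p under 0.05, 19 members were higher and 5 lower (Col4a6, Col8a2, Col9a3, Col17a1 and Col25a1) by edgeR. By adjusted p, 1 was called lower by DESeq2 and 0 by limma-voom. The share of all tested genes under the unadjusted cutoff was not computed. Counts at that cutoff, here and in the paragraphs below, therefore do not show an excess over other genes.

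The 9 calls were also read with each library left out, in fits which assume that the lone library of its group varies like the other group. Log2 fold changes of the 9 went from 0.68 (Col4a1) to 3.05 (Col24a1) without normoxic replicate 1. They went from 0.73 (Col4a2) to 2.97 (Col24a1) without normoxic replicate 2, beside 0.71 (Col4a2) to 3.0 (Col24a1) with all libraries. Without normoxic replicate 1, 0 of the 9 passed (adjusted p = 0.0643 to 0.25), and without normoxic replicate 2 only Col8a1 did (adjusted p = 0.0482 to 0.243). At an unadjusted p under 0.05, 10 members were then higher without replicate 1 and 13 without replicate 2. Calls over all genes fell as well, to 0.0872% higher and 0.0410% lower of the tested genes without replicate 1, and to 0.281 and 0.296% without replicate 2. Without treated replicate 1 or treated replicate 2, all 9 passed, and 15 or 13 further members were called, beside 13.4 and 12.3% of all genes higher and lower without treated replicate 1 and 11.9 and 12.5% without treated replicate 2. With the male share of each pool in the model, which leaves 1 residual degree of freedom, 0 of the 9 passed (adjusted p = 0.283 to 0.638), and at an unadjusted p under 0.05 there were 6 members higher and 2 lower. That fit called 0.0213% of all genes higher and 0.0373% lower.

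Other tools and scalings kept the 9 calls, apart from Col24a1 by limma-voom. They were called with RLE factors (5.62 and 5.84% of all genes higher and lower), upper-quartile factors (4.25 and 7.58%) and library size alone (4.07 and 8.43%). They were also called with no expression filter (6.52 and 6.91%), a mean CPM filter (6.99 and 8.09%) and unstranded counts (5.38 and 5.86%). DESeq2 called 15 collagen genes higher, beside 5.63 and 5.54% of all genes, and limma-voom 8, beside 5.32 and 6.15%. The DESeq2 shares are over 27235 genes with any read, including genes to which it gave no adjusted p. Those of limma-voom are over 18783 genes, so the shares of the 2 tools are not directly comparable.

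**Figure D2:**
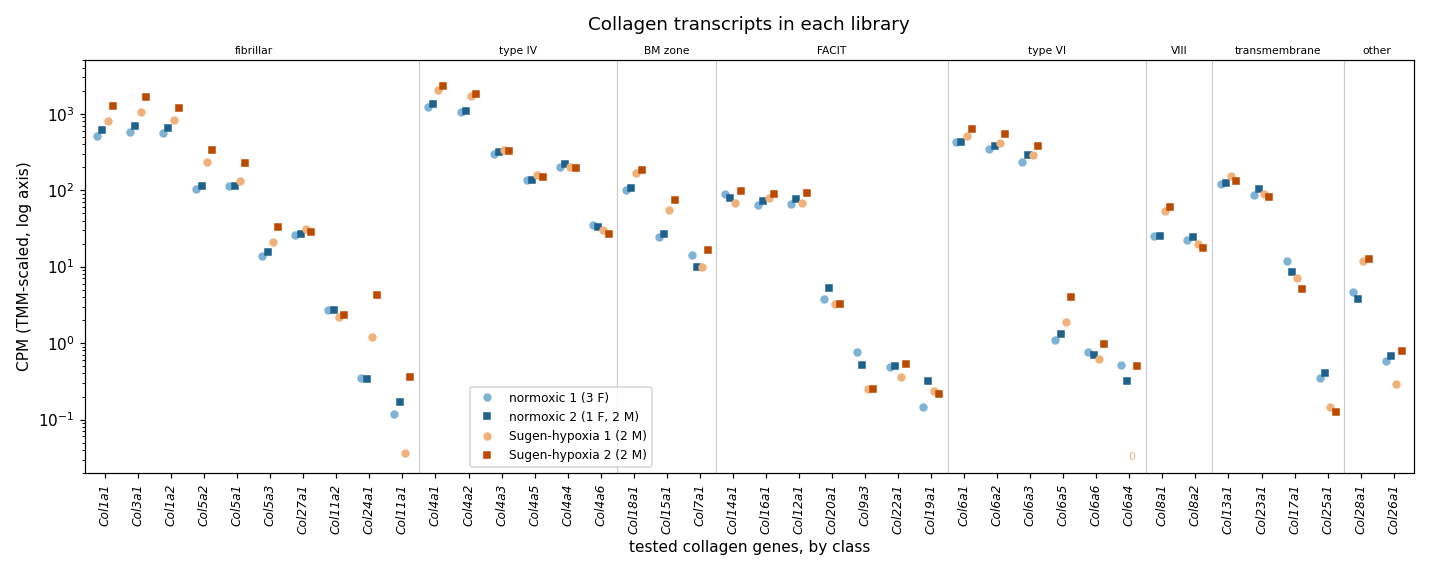
Level of each of the 40 tested collagen genes in each library, in TMM-scaled CPM on a log axis, grouped by class; circles are replicate 1 and squares replicate 2, blue for normoxia and orange for Sugen-hypoxia, and a 0 marks a library with no read. Col4a1 in the treated pools, at 2018 and 2289.6 CPM, is the highest symbol, and Col5a2, Col15a1, Col8a1 and Col28a1 show both treated pools well above both normoxic ones.

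Among the fibrillar collagens, 3 of 10 tested genes rose, 0 fell (0 also at an unadjusted p under 0.05, by DESeq2 and by limma-voom) and the median log2 fold change was 0.80. In 8 of them both treated pools were above both normoxic pools. Summed, the class stood at 1907 and 2233 CPM in the normoxic pools and at 3117 and 4742 CPM in the treated pools. The interstitial chains of types I and III dominated this sum, and the regulatory type V chains came next.

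Col3a1 (ENSMUSG00000026043, chromosome 1, 45311538 to 45349706, plus strand, GRCm38) encodes the only chain of type III collagen, the homotrimer found with type I in distensible tissue. It was at 575 and 692 CPM in normoxia and at 1056 and 1672 CPM in Sugen-hypoxia, so both treated pools were higher and they lay far apart. The fold change was 2.15 (log2 1.11 ± 0.23 SE, adjusted p = 0.0369). The log2 fold change was 0.74 without treated replicate 2 and 1.4 without treated replicate 1. Its upstream window is shown because Col3a1 was the only one of 8 genes that rose and had a window in the RefSeq table (GRCm38.p6) to hold the letters TATAAA within 250 bases upstream of a start. These letters, on either strand, were in 12.4% of 32851 windows of all genes and in 5 of 38 windows of 35 collagen genes. In the stretch chr1:45311288-45311537, plus strand and 35.2% G and C, capitals mark TATAAA, which lies 117 bases before the start:
Col3a1 upstream: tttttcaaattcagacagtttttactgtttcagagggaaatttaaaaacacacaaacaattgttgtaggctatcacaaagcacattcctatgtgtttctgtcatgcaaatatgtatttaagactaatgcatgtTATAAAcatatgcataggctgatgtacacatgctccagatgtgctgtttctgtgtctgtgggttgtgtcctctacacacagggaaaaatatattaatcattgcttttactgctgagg

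Type I collagen, the main fibril protein of the lung interstitium, is built from 2 chains encoded by Col1a1 and Col1a2. Col1a1 (chromosome 11, 94936224 to 94953042, plus strand) was at 515 and 609.7 CPM in normoxia and at 799 and 1243 CPM in treated lungs. Its fold change of 1.81 did not pass the threshold (log2 0.86 ± 0.22 SE, adjusted p = 0.06). Col1a2 (chromosome 6, 4504814 to 4541544, plus strand) was at 556 and 658 CPM against 837 and 1199 CPM, 1.68-fold higher with an adjusted p of 0.0584 (log2 0.75 ± 0.18 SE). Neither gene's groups overlapped, and the SD between the treated pools (314 CPM for Col1a1 and 256 CPM for Col1a2) was several times that between the normoxic pools (66.8 and 72.1 CPM). Per kb of exon, Col1a1 led the class in both groups (85.7 and 156 CPM per kb, normoxic and treated means), followed by Col3a1 (64.6 and 139) and Col1a2 (48.8 and 81.9). Per kb of the longest transcript, Col3a1 came first and Col1a1 last of the 3, so their order depends on the length used.

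Type V chains regulate the width of type I fibrils, and their genes differed in what they showed. Col5a2 (ENSMUSG00000026042, chromosome 1, 45374321 to 45503282, minus strand) was at 105 and 113 CPM in normoxia and 236 and 337 CPM in Sugen-hypoxia. It rose 2.63-fold (log2 1.39 ± 0.17 SE, adjusted p = 0.0103). Its neighbour on the chromosome is Col3a1: the genes lie tail to tail with 24614 bases between them, and both rose. Col5a1, the other chain of the common type V heterotrimer, was at 112 and 115 CPM against 133 and 224 CPM and did not pass (log2 0.65 ± 0.23 SE, adjusted p = 0.13). Col5a3, a minor chain, was at 13.7 and 15.3 CPM against 21.2 and 33.3 CPM (log2 0.91 ± 0.21 SE, adjusted p = 0.0525). For both, the treated pools were above the normoxic pools, and treated replicate 2 was the higher one.

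Col24a1 (ENSMUSG00000028197, chromosome 3, 145292472 to 145552011, plus strand), a low-abundance fibrillar chain, had the highest fold change in the family. It was counted by 24 and 20 reads in normoxia and by 67 and 277 reads in Sugen-hypoxia, or 0.351 and 0.334 against 1.21 and 4.3 CPM. The fold change was 8.02 (log2 3.0 ± 0.65 SE, adjusted p = 0.0428), with a log2 value of 1.82 without treated replicate 2 and 3.64 without treated replicate 1. It was the only one of the 9 that limma-voom did not call (adjusted p = 0.113). Of the other fibrillar chains, Col27a1 was at 26.3 to 31.4 CPM (adjusted p = 0.208), Col11a2 at 2.17 to 2.74 CPM (0.446) and Col11a1 at 0.0361 to 0.357 CPM (0.77). With normoxic replicate 1 or 2 left out, Col5a2 had an adjusted p of 0.111 or 0.0965, Col3a1 of 0.25 or 0.176 and Col24a1 of 0.241 or 0.243.

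The 6 type IV chains, which form basement membrane, gave calls in 1 gene pair. The genes lie head to head in 3 pairs: Col4a1 with Col4a2, Col4a3 with Col4a4, and Col4a5 with Col4a6. Of the 6, only Col4a1 and Col4a2 rose and 0 fell (1 at an unadjusted p under 0.05, Col4a6, and 0 by DESeq2 and limma-voom), with a median log2 fold change of 0.14. Whether the pairs' responses differ was not tested. Summed, the class went from 2934 and 3143 CPM to 4424 and 4769 CPM, and Col4a1 and Col4a2 made up most of it.

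Col4a1 (ENSMUSG00000031502, chromosome 8, 11198423 to 11312826, minus strand) and Col4a2 (ENSMUSG00000031503, 11312805 to 11449287, plus strand) encode the chains of the ubiquitous type IV trimer. Col4a1 was at 1227 and 1354 CPM in normoxia and 2018 and 2289.6 CPM in Sugen-hypoxia, 1.67-fold higher (log2 0.74 ± 0.11 SE, adjusted p = 0.0156). Col4a2 was at 1041 and 1080.4 CPM against 1679 and 1787 CPM, 1.63-fold higher (log2 0.71 ± 0.08 SE, adjusted p = 0.00985). Per kb of exon they were the highest members of the whole family, at 173 and 160 CPM per kb in normoxia and 289 and 262 in treated lungs. Their annotated first exons overlap by 22 bases, so no stretch between them lies outside a transcript. Of the 8 genes that rose and had an upstream window, only these held ACGTG or GCGTG, the response core of hypoxia and xenobiotic elements, which was in 38.6% of all windows and 11 of 38 collagen windows. Without normoxic replicate 1 or 2, the adjusted p was 0.212 or 0.155 for Col4a1 and 0.177 or 0.153 for Col4a2.

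Col4a3, Col4a4 and Col4a5 encode the chains of the trimer found in alveolar and glomerular basement membrane. Col4a3 (chromosome 1, 82586921 to 82722059, plus strand) was at 299 and 318 CPM against 339 and 322 CPM, a log2 fold change of 0.10 ± 0.07 SE (adjusted p = 0.385). Col4a4 (82448423 to 82586849, minus strand) was at 199 and 221 CPM against 201 and 195 CPM (log2 -0.08 ± 0.07 SE, adjusted p = 0.5), and its groups overlapped. Per kb, Col4a3 stood at 31 CPM in normoxia and 33.2 in treated lungs, and Col4a4 at 19.8 and 18.7. The stretch between their start sites is shown because these 2 genes, which run in opposite directions from it, gave the smallest differences of the class. It holds 71 bases (chr1:82586850-82586920, printed on the Col4a4 strand) with 69.0% G and C. It held none of the motifs searched on either strand, which besides TATAAA and the response core were the GC box GGGCGG and the CCAAT box, present in 33.8% of all windows and 13 of 38 collagen windows:
Col4a4 to Col4a3: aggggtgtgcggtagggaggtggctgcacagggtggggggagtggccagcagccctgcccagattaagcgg

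The X-linked pair starts 1308 bases apart. Col4a5 (141475385 to 141689234, plus strand) was at 134 and 136 CPM against 157 and 149 CPM (log2 0.18 ± 0.06 SE, adjusted p = 0.105). Col4a6 (141165403 to 141474076, minus strand), which with Col4a5 forms a trimer of smooth muscle and some epithelial basement membranes, was at 34.7 and 33.1 CPM against 29.8 and 26.9 CPM (log2 -0.26 ± 0.08 SE, adjusted p = 0.0945). The treated pools were above the normoxic ones for Col4a5 and below them for Col4a6. Neither difference passed the threshold, and Col4a6 was called lower when library size alone was used for scaling.

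In the basement membrane zone, both multiplexins rose and the anchoring fibril chain did not pass. Multiplexins are proteoglycans with an interrupted triple helix, and the end domain of type XVIII is the source of endostatin. Col18a1 (ENSMUSG00000001435, chromosome 10, 77052178 to 77166548, minus strand) was at 100.3 and 108 CPM in normoxia and 166 and 181 CPM in Sugen-hypoxia. It rose 1.67-fold (log2 0.74 ± 0.07 SE, adjusted p = 0.00675). Col15a1 (ENSMUSG00000028339, chromosome 4, 47208161 to 47313167, plus strand), the type XV chain of vessel and muscle basement membrane zones, was at 24.3 and 26.4 CPM against 55 and 74.4 CPM. Its rise was 2.55-fold (log2 1.35 ± 0.15 SE, adjusted p = 0.00875). Per kb, Col18a1 was the more abundant (14.8 in normoxia and 24.7 in treated lungs, against 4 and 10.2 for Col15a1). Col7a1, the chain of the fibrils that anchor stratified epithelium, was at 14.1, 9.98, 9.94 and 16.7 CPM in normoxic 1 and 2 and treated 1 and 2, with overlapping groups (adjusted p = 0.764). Without normoxic replicate 1 or 2, the adjusted p was 0.0961 or 0.0734 for Col18a1 and 0.0942 or 0.079 for Col15a1.

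The FACIT collagens showed no call in either direction among 7 tested genes by edgeR or limma-voom, and the median log2 fold change was -0.02. At an unadjusted p under 0.05, Col16a1 was higher and Col9a3 lower, and DESeq2 called 1 higher and 0 lower. Col14a1, which binds fibrils through decorin, was at 88.4 and 78.1 CPM in normoxia and 67 and 97.8 CPM in Sugen-hypoxia (log2 -0.01 ± 0.18 SE, adjusted p = 0.968). Col12a1, found on fibrils of dense tissue, was at 66.3 and 75.8 CPM against 67.9 and 93 CPM (adjusted p = 0.486). In both genes the 2 treated pools differed by more than the group means did. Col16a1 was at 63.1 and 71.1 CPM against 77.8 and 89 CPM (log2 0.32 ± 0.09 SE, adjusted p = 0.0869). The others were Col20a1 at 3.26 to 5.27 CPM, and Col9a3, Col22a1 and Col19a1 each under 1 CPM, of which Col9a3 had the lowest log2 fold change (-1.35 ± 0.42 SE, adjusted p = 0.0985).

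**Figure D3:**
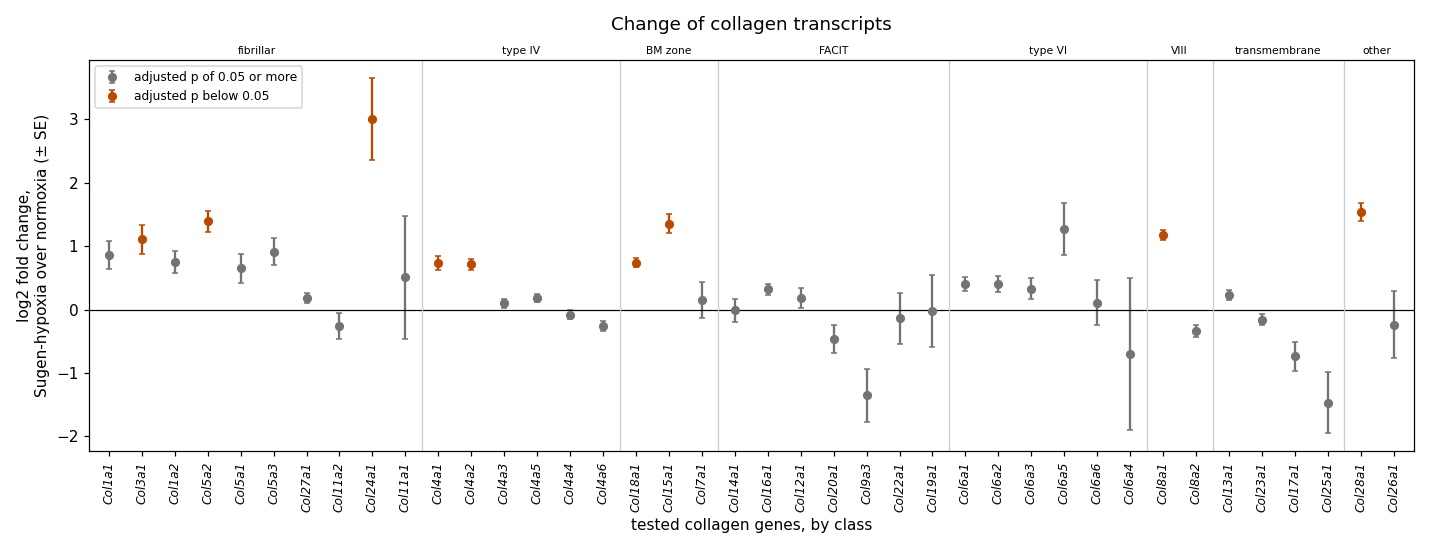
Log2 fold change of each tested collagen gene, Sugen-hypoxia over normoxia, with its standard error, by class; orange points have an adjusted p below 0.05 and grey points do not. The 9 orange points all lie above 0, from 0.71 for Col4a2 to 3.0 for Col24a1, and the FACIT, type VI and transmembrane classes hold none.

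Type VI collagen, whose beaded filaments link cells to the surrounding matrix, was abundant in lung, and 0 of its 6 genes passed by edgeR or limma-voom. Col6a1 was at 423 and 431 CPM in normoxia and 504 and 626 CPM in Sugen-hypoxia (log2 0.40 ± 0.11 SE, adjusted p = 0.0773). Col6a2 was at 348 and 378 CPM against 416 and 541 CPM (log2 0.40 ± 0.13 SE, adjusted p = 0.114), and Col6a3 at 236 and 292 CPM against 287 and 376 CPM (log2 0.33 ± 0.16 SE, adjusted p = 0.23). Treated pools were above normoxic pools for Col6a1 and Col6a2 and overlapped them for Col6a3. At an unadjusted p under 0.05, 3 of the 6 were higher (Col6a1, Col6a2 and Col6a5) and 0 lower, and DESeq2 called 3 higher and 0 lower. Per kb, Col6a1 stood at 97.5 CPM in normoxia and 129 in treated lungs, below Col4a1 and Col4a2 in both groups. The alternative chains were low, Col6a5 at 1.11 to 4.02 CPM, Col6a6 at 0.614 to 0.963 CPM and Col6a4 at 0 to 0.512 CPM, with 35 and 19 reads against 0 and 32.

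Type VIII collagen, a short-chain network of vessel walls, had 1 gene that rose. Col8a1 (ENSMUSG00000068196, chromosome 16, 57624258 to 57754737, minus strand) was at 25 and 25 CPM in normoxia and 52.9 and 59.5 CPM in Sugen-hypoxia. It rose 2.25-fold (log2 1.17 ± 0.08 SE) and had the lowest adjusted p of the family, 0.00406. Col8a2 (chromosome 4, 126286793 to 126314330, plus strand), the other chain of type VIII, was at 22.4 and 24.7 CPM against 19.9 and 17.4 CPM (log2 -0.34 ± 0.10 SE, adjusted p = 0.0904). The treated pools were thus above the normoxic pools for one chain and below them for the other. The adjusted p of Col8a1 was 0.0643 without normoxic replicate 1 and 0.0482 without normoxic replicate 2.

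The upstream stretches of the type VIII genes are shown side by side because the treated pools lay on opposite sides of the normoxic ones. Only the rise of Col8a1 passed the threshold. Capitals mark the GC box GGGCGG on either strand, which was in 32.7% of all windows and 22 of 38 collagen windows. Col8a1 (chr16:57754738-57754987, minus strand, 60.8% G and C) holds 4 of them, 170, 73, 66 and 23 bases before its start. Col8a2 (chr4:126286544-126286792, plus strand, 69.9% G and C) holds 4 as well, 93, 41, 19 and 15 bases before its start, the last pair overlapping. Neither held the TATA box, the CCAAT box or the response core:
Col8a1 upstream: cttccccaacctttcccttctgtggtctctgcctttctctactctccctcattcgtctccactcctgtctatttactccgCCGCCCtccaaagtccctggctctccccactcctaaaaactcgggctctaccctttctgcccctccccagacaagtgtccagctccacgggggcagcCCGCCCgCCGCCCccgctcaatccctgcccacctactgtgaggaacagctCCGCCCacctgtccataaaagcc
Col8a2 upstream: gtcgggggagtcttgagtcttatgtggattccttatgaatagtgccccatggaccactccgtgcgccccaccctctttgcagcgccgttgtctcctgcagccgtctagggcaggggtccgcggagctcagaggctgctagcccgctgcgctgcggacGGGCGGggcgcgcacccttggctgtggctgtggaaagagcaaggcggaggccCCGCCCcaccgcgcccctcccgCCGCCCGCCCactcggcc

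Of the 4 transmembrane collagens, 0 passed by edgeR or limma-voom, while DESeq2 called 1 lower (Col17a1). The median log2 fold change was -0.45, and treated replicate 2 was below treated replicate 1 in all 4 genes. Col13a1, a chain found at cell adhesions, was at 119.6 and 124 CPM in normoxia and 151 and 133 CPM in Sugen-hypoxia (log2 0.23 ± 0.08 SE, adjusted p = 0.121). Col23a1 was at 87.2 and 102 CPM against 87.9 and 81.9 CPM (adjusted p = 0.304), with overlapping groups. Col17a1, the hemidesmosome collagen of epithelial cells, was at 11.7 and 8.49 CPM against 7.02 and 5.09 CPM (log2 -0.74 ± 0.23 SE, adjusted p = 0.0926). Col25a1, a neuronal collagen, was at 0.351 and 0.4 CPM against 0.144 and 0.124 CPM (log2 -1.47 ± 0.48 SE, adjusted p = 0.106). At an unadjusted p under 0.05, Col13a1 was higher and Col17a1 and Col25a1 lower. Beside Col17a1, markers of basal epithelium summed to 2.18 to 3.19 CPM, with Krt5 at 0 in 3 of the 4 libraries, and their part in the result was not tested.

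Of the remaining genes, Col28a1 rose and Col26a1 did not pass. Col28a1 (ENSMUSG00000068794, chromosome 6, 7997808 to 8192617, minus strand) encodes a chain flanked by von Willebrand factor domains and known from basement membranes around Schwann cells. It was at 4.64 and 3.8 CPM in normoxia and 11.9 and 12.7 CPM in Sugen-hypoxia, so the groups were far apart. The rise was 2.92-fold (log2 1.54 ± 0.14 SE, adjusted p = 0.00625). Its adjusted p was 0.0643 or 0.063 without normoxic replicate 1 or 2. Over the Schwann cell marker list, 0 of 7 tested genes rose by edgeR (0 at an unadjusted p under 0.05, 1 by DESeq2 and 0 by limma-voom) and 1 fell, beside 5.51 and 6.01% of all genes. The marker sums were 796 and 928 CPM in normoxia and 1034 and 851 CPM in Sugen-hypoxia. Without Scn7a, which spanned the widest range of the list, they were 378 and 409.9 CPM against 392 and 319 CPM. Col26a1, known from reproductive tissue, was at 0.289 to 0.776 CPM in all libraries (adjusted p = 0.802).

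The 4 untested members are cartilage collagens. Col9a1 had 0 reads in all 4 libraries, which allows up to 0.0439 to 0.0541 CPM in a library, the level of 3 reads. Col2a1 had 12 and 2 reads in normoxia and 2 and 0 in Sugen-hypoxia. Col9a2 had 4 and 6 against 2 and 5 reads, and Col10a1 had reads (4) in treated replicate 1 only. These levels were too low to compare at this depth. Among 15 chondrocyte markers, Acan, Matn1, Snorc and Epyc had no read in any library. The whole list summed to 108 and 109.9 CPM in normoxia and 110.2 and 118 CPM in treated lungs. Without Matn4, which spanned the widest range of the list, the sums were 54.6 and 49.7 CPM against 41.4 and 47.8 CPM. Both treated pools then lay below both normoxic ones.

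Ratios between chains that share a trimer or tissue separated the groups for most pairs. The ratios are per kb of exon. For some pairs the side of 1 on which a ratio lies depends on the length used, while its change between groups does not. Per kb of the longest transcript, for example, mean Col1a1 was at 133 CPM and Col1a2 at 152 CPM. Col5a2 to Col5a1 was 0.83 and 0.867 in normoxia and 1.57 and 1.33 in Sugen-hypoxia, and the ratio of group means was 1.71. Col8a1 to Col8a2 was 0.639 and 0.581 against 1.52 and 1.96, the widest change of the 9 pairs (2.85). Col4a1 to Col4a3, the ubiquitous against the alveolar type IV chain, was 5.48 and 5.68 against 7.95 and 9.49. In these 3 pairs the treated libraries were all above the normoxic ones. Col3a1 to Col1a1 was 0.747 and 0.759 against 0.883 and 0.899, and Col4a5 to Col4a6 was 4.57 and 4.88 against 6.24 and 6.57. Col1a1 to Col1a2 went from 1.75 in both normoxic libraries to 1.81 and 1.96, while Col4a1 to Col4a2 (1.05 to 1.14) and Col6a1 to Col6a2 (2.16 to 2.31) overlapped between groups. Col4a3 to Col4a4 went from 1.6 and 1.53 to 1.79 and 1.76. These ratios are descriptions, since 2 against 2 libraries cannot go below an exact p of 0.33. How often ratios of other gene pairs separate the groups was not computed. Among single genes tested, both treated pools lay above both normoxic ones in 30.0% and below them in 31.7%.

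**Figure D4:**
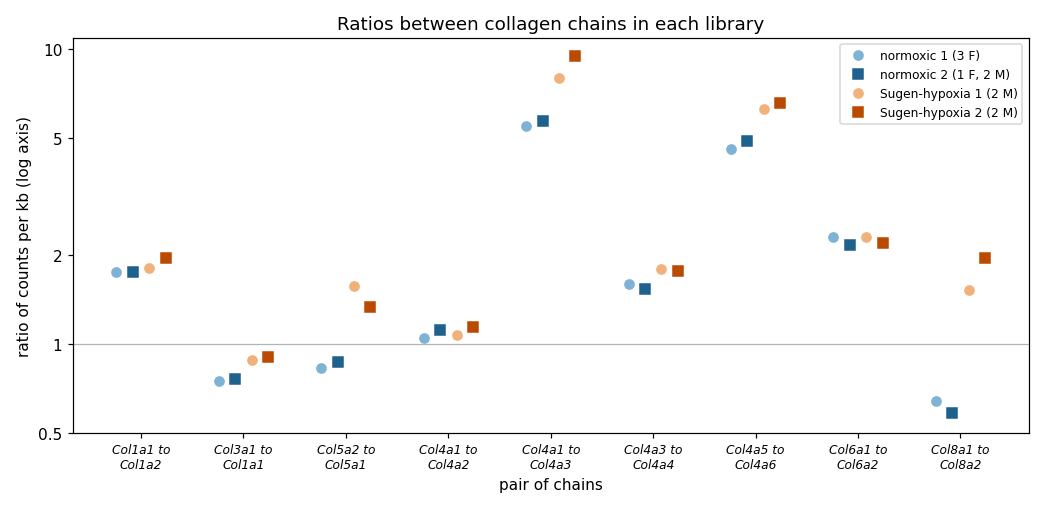
Ratio of counts per kb of exon between 2 collagen chains in each of the 4 libraries, on a log axis, for 9 pairs; F and M give the sexes in each pool. The treated libraries lie above the normoxic ones in 7 pairs, with the widest gap for Col8a1 to Col8a2, and overlap them for Col4a1 to Col4a2 and Col6a1 to Col6a2. How often ratios of other gene pairs separate the groups was not computed.

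The treated pools were not alike. Treated replicate 2 was above treated replicate 1 in 27 of the 40 tested collagen genes (49.5% of all tested genes), including 9 of the 10 fibrillar genes and all 6 type VI genes. Normoxic replicate 2, the normoxic pool with males, lay between normoxic replicate 1 and both treated pools in 23 of 40 genes (30.8% of all tested genes), 8 of them fibrillar and 5 of type IV. Summed collagen was 6484 and 7143 CPM in the normoxic pools and 9531 and 11925 CPM in the treated pools. Macrophage markers differed between the same pools, at 929.6 and 817 CPM in normoxia and 1876 and 4848 CPM in treated replicates 1 and 2, most of it Chil3. Without Chil3 they summed to 258 and 233 CPM against 278 and 448 CPM. Their part in the collagen values was not tested.

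Markers of the cells that make collagen were read beside these results. The counts of markers called stand beside 5.51% of all tested genes higher and 6.01% lower, and the lists were chosen with earlier results of these data known. Fibroblast markers summed to 4322 and 4363 CPM in normoxia and 5015 and 3959 CPM in Sugen-hypoxia, so the groups overlapped. Without Inmt, which fell (1875 and 1868 CPM against 1114 and 679 CPM) and spanned the widest range of the list, the sums were 2447 and 2495 CPM against 3902 and 3279.9 CPM, and both treated pools lay above both normoxic ones. In that smaller sum, Mfap4 went from 403 and 425 CPM to 1284 and 986 CPM, and Npnt, which was not called, from 875 and 924 CPM to 1362 and 1023 CPM. Of 14 tested fibroblast genes 3 rose and 1 fell. The log2 fold change was above 0 in 6 of the 14 and below 0 in 8, with a median of -0.07. Activated fibroblast markers summed to 576 and 606 CPM against 614 and 1118 CPM, and 3 of 7 rose (Cthrc1, Tnc and Aspn), while Postn was between 302 and 342 CPM. Spp1, which was not called (193 and 187 CPM against 93.5 and 517 CPM), made most of the gap between the treated pools, and without it the sums were 383 and 419 CPM against 521 and 601 CPM. Pericyte markers summed to 974 and 1006 CPM against 1342 and 1188 CPM with 4 of 10 up, and smooth muscle markers to 997 and 1105 CPM against 1318 and 1413 CPM with 4 of 10 up and 1 down. Endothelial markers, beside the type IV and type XVIII results, summed to 6105 and 5895 CPM against 6900.4 and 5924 CPM, with 3 of 14 up and 4 down, and without Cdh5 to 4963 and 4733 CPM against 5029 and 4324 CPM. Type 1 alveolar markers, beside Col4a3 and Col4a4, summed to 7144 and 7368 CPM against 6573 and 5989 CPM, with 0 of 9 up (0 also at an unadjusted p under 0.05, by DESeq2 and by limma-voom) and 2 down. The sums without 1 gene, that with the widest range over libraries, were chosen after seeing the data. The part of these cell types in the collagen values was not tested.

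The genes that make, assemble, bind and degrade collagen were read in the same test. Of 81 tested genes of 84 listed, 27 rose and 2 fell, beside 5.51 and 6.01% of all genes, and the median log2 fold change was 0.23. Upper-quartile factors gave 24 higher, library size alone 23 and limma-voom 24. The lists were chosen with earlier results of these data known, so these counts do not test for an excess over all genes. No test compared the roles with each other. With normoxic replicate 1 or 2 left out, 1 and 2 of the 81 were called higher, and without treated replicate 1 or 2, 40 and 43 were.

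Of the enzymes and chaperones of hydroxylation and folding, 9 of 19 rose and 0 fell (1 lower at an unadjusted p under 0.05 by edgeR, and 0 by DESeq2 and limma-voom). P4ha3, a catalytic subunit of prolyl 4-hydroxylase, was at 1.61 and 1.45 CPM in normoxia and 3.63 and 8.76 CPM in Sugen-hypoxia, 4.05-fold higher (adjusted p = 0.0412, and 0.0838 by limma-voom). P3h1, the prolyl 3-hydroxylase, was at 22.8 and 25.2 CPM against 37.1 and 39.3 CPM (1.59-fold, adjusted p = 0.0103). Serpinh1, the collagen chaperone HSP47, was at 341 and 369.6 CPM against 523 and 571 CPM (1.54-fold, adjusted p = 0.0126). The other genes of this role that rose were P4ha2, Plod1, Plod3, Crtap, Fkbp10 and Colgalt1. With upper-quartile factors 7 of the 19 passed, without Crtap (adjusted p = 0.0664) and Colgalt1 (0.0563), and with library size alone 6, also without Fkbp10 (0.0547). In secretion, Sec23a, a coat protein of transport vesicles, was the 1 of 7 that rose (1.36-fold, adjusted p = 0.0165).

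Outside the cell, Adamts2, which removes the amino-terminal propeptide of fibrillar collagens, was at 69.4 and 80.2 CPM in normoxia and 154 and 177 CPM in Sugen-hypoxia. It rose 2.21-fold (adjusted p = 0.00567) and was the 1 of 7 tested propeptide genes to do so. Of 7 crosslinking genes, 3 rose by edgeR, all of the lysyl oxidase family. Lox was at 96.4 and 82.4 CPM against 245 and 265 CPM (2.85-fold, log2 1.51 ± 0.09 SE, adjusted p = 0.00363). Its call also held without normoxic replicate 1 (adjusted p = 0.0407) or 2 (adjusted p = 0.0356). Loxl2 went from 28.3 and 25.2 CPM to 62 and 75.6 CPM (2.57-fold, adjusted p = 0.00529), and Loxl1 from 182 and 175 CPM to 289.7 and 299 CPM (1.65-fold, adjusted p = 0.00529). Pxdn, also a crosslinking gene, was at 262 and 279.7 CPM against 233 and 227 CPM and was not called by edgeR (log2 -0.23 ± 0.06 SE, adjusted p = 0.0757). It was called lower with upper-quartile factors (adjusted p = 0.0468), library size alone (0.0387), no expression filter (0.0427) and DESeq2 (0.0335), and not by limma-voom (0.069). Tgm2, of the same role, was not called by edgeR (log2 0.29 ± 0.07 SE, adjusted p = 0.0576). It was called higher by limma-voom (0.0423), DESeq2 (0.000756), unstranded counts (0.0488) and no expression filter (0.0143). With RLE factors (0.0556), upper-quartile factors (0.0896), library size alone (0.106) and a mean CPM filter (0.0556) it was not called.

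Among fibril assembly partners, 3 of 10 rose and 1 fell. Fn1, the fibronectin on which fibrils are laid down, was at 729.7 and 711 CPM against 1423 and 1949 CPM (2.34-fold, adjusted p = 0.0119). Sparc, a collagen-binding matricellular protein, was at 1382 and 1579.7 CPM against 2619 and 2695 CPM (1.79-fold, adjusted p = 0.0103), and the proteoglycan Bgn rose as well. Tnxb, the tenascin that spaces fibrils, fell from 302 and 329 CPM to 178 and 155 CPM (log2 -0.92 ± 0.09 SE, adjusted p = 0.00705). Of 5 basement membrane partners, 1 rose, the type IV-binding Nid1, from 233 and 221 CPM to 277 and 278 CPM (1.22-fold, adjusted p = 0.0394). Its call was lost with upper-quartile factors (adjusted p = 0.0621) and library size alone (adjusted p = 0.067).

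Of 12 collagen receptors, 3 rose and 0 fell (0 lower also at an unadjusted p under 0.05, by DESeq2 and by limma-voom). They were the uptake receptor Mrc2 (148 and 151 CPM against 232 and 215 CPM, adjusted p = 0.00915) and the integrin chains Itga1 (250 and 271 CPM against 371 and 359.6 CPM, adjusted p = 0.0155) and Itgb1 (834 and 854 CPM against 1203 and 1112 CPM, adjusted p = 0.0257).

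Of 14 tested genes of degradation and its inhibitors, 6 rose, 1 fell and the median log2 fold change was 0.91. Mmp12, macrophage elastase, was at 6.12 and 4.97 CPM in normoxia and 74.8 and 349 CPM in Sugen-hypoxia (38.2-fold, log2 5.25 ± 0.79 SE, adjusted p = 0.018). Mmp13, a collagenase of fibrillar collagen, was at 0.439 and 0.501 CPM against 3.39 and 11.6 CPM (log2 4.0 ± 0.64 SE, adjusted p = 0.0204). Ctsk, the collagen-cleaving cathepsin K, was at 20.5 and 21.8 CPM against 61.8 and 185 CPM (5.84-fold, adjusted p = 0.0329). In all 3, treated replicate 2 was the higher treated pool, as it was in 10 of the 14 genes of this role and in the summed macrophage markers. The part of macrophages in these values was not tested. By limma-voom 3 genes of the role were called higher instead of 6, without Mmp12 (adjusted p = 0.0608), Mmp13 (0.0939) and Ctsk (0.0548). Mmp2, Mmp14 and Mmp16 also rose. Mmp9, a gelatinase, fell from 72.7 and 82.1 CPM to 35.5 and 30.4 CPM (log2 -1.23 ± 0.10 SE, adjusted p = 0.00527).

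**Figure D5:**
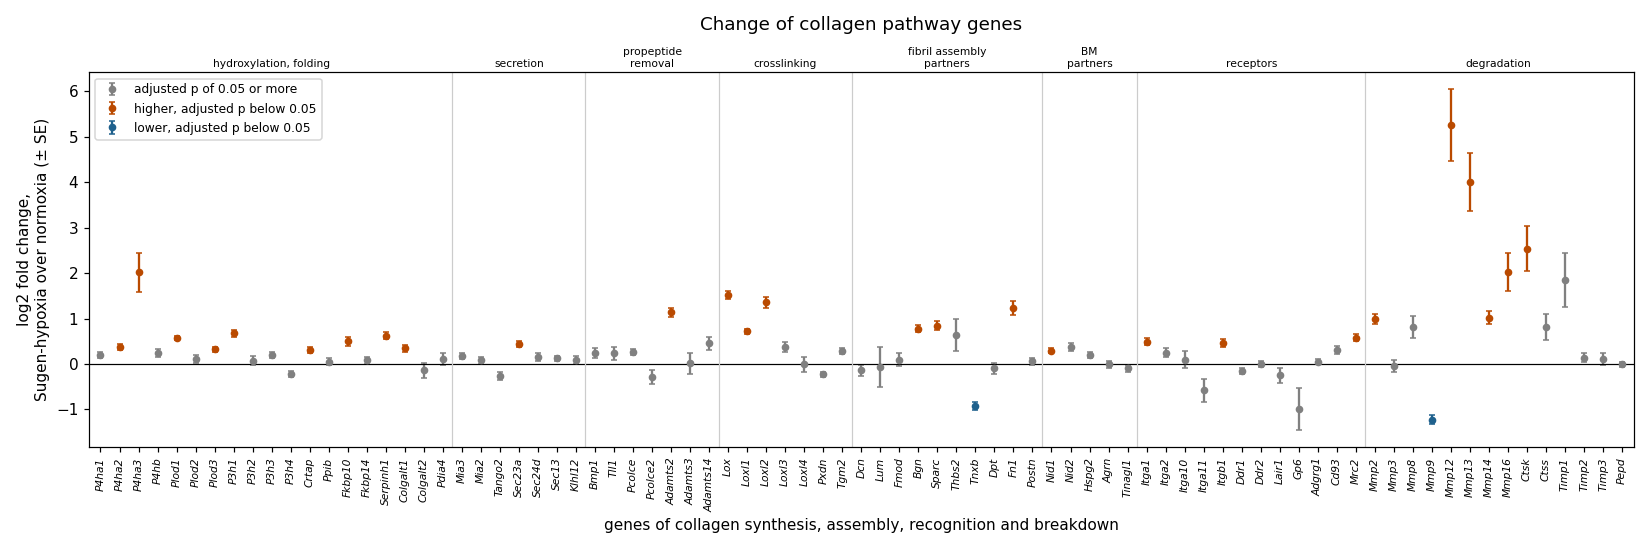
Log2 fold change, Sugen-hypoxia over normoxia, with its standard error, of the 81 tested genes of collagen synthesis, assembly, recognition and breakdown, in order of role; orange points rose, blue points fell and grey points have an adjusted p of 0.05 or more. The 27 orange points are in every role, the highest being Mmp12 at 5.25, and the 2 blue points are Tnxb and Mmp9.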

How the data were processed

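RNA was sequenced from 4 whole-lung libraries, 2 Normoxic and 2 Sugen-Hypoxic. The values deposited by the authors are raw counts of reads per gene, with 1 file per library. Per the submitters' processing notes, STAR 2.5.1b, HTSeq and GRCm38.p4 were used; which tool counted is not given in the sources used here. The column holding most reads (20.9 to 24.9 times the opposite-strand column) was used, without summary rows for unmapped (6.45 to 7.55% of reads), multimapping (4.5 to 4.54%), featureless (7.73 to 9.98%) and ambiguous reads (1.1 to 1.13%). Multimapping reads were thus not counted. Symbols, coordinates and exon lengths came from GENCODE release 21 (47310 of 47729 genes matched), and upstream sequences from RefSeq (GRCm38.p6).

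Genes passing filterByExpr (18783) were tested with edgeR 4.0.16 (R 4.3.3, TMM factors, glmQLFTest, two-sided, Benjamini-Hochberg at 0.05), with group as the only term, and the fit was tested on simulated data. CPM used TMM-scaled library sizes; values ± are SD over 2 libraries or SE of the fit. With 57.3 to 67.1 M gene counts, 3 reads equal 0.0439 to 0.0541 CPM. That floor covers counting error only. The labels say how many animals of each sex a library held, and replicate numbers follow record order. Alternatives were DESeq2 1.42.0, limma-voom (limma 3.58.1), other scalings and filters, unstranded counts, the male share as covariate and each library left out. Named genes were all collagens called, the 3 most abundant per kb in each class, partner chains, and up to 3 called genes in each pathway role with the largest change. The members, lists and motifs were chosen with earlier results of these data known.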

Additional observations from a re-analysis of the deposited data

How the results depend on the processing

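Of the 9 collagen calls, all 9 remained with RLE or upper-quartile factors, library size alone, no filter, a mean CPM filter, unstranded counts and DESeq2, and 8 with limma-voom. Collagen genes higher and lower numbered 17 and 2 without a filter and 15 and 1 with DESeq2. With library size alone 1 was lower, and with the male share in the model 0 were higher. Leaving out 1 library gave 0 to 21 higher and 0 to 3 lower. For pathway genes (27 higher and 2 lower), scalings and tools gave 23 to 33 higher and 2 to 3 lower, the male share gave 0 higher and 0 lower, and leaving out 1 library 1 to 43 higher and 0 to 7 lower. Over all genes, 1035 higher and 1128 lower became 1775 and 1882 without a filter, 4 and 7 with the male share, 799 and 1424 with upper-quartile factors and 765 and 1584 with library size alone, and ranged from 17 to 2663 higher and 8 to 2454 lower with 1 library left out. No scaling moved the median of all genes by over 0.1. The causes of these shifts were not tested.

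Among genes without a call, the log2 fold change reversed for Col11a1 (-0.12 with limma-voom, -1.91 to 1.33 with 1 library left out), Col7a1 (-0.27 to 0.48 with 1 left out), Col14a1 (0.17 with the male share, -0.31 to 0.23 with 1 left out), Col12a1 (-0.01 with the male share, -0.06 to 0.39 with 1 left out) and Col22a1 (-0.44 to 0.10 with 1 left out). It also did for Col19a1 (0.09 with limma-voom, -0.48 to 0.62 with 1 left out), Col6a6 (-0.25 to 0.4 with 1 left out), Col6a4 (0.03 with the male share, -7.68 to 0.25 with 1 left out) and Col26a1 (-1.13 to 0.29 with 1 left out). With unstranded counts, an alternative chosen after seeing the data, the collagen share was 0.717% in normoxia and 1.07% in Sugen-hypoxia. A fit without 1 library assumes that the lone library of its group varies like the other group. No paired analysis was possible because the labels give no replicate numbers.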

Other observations

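Genes outside the family whose proteins carry short collagen-like repeats, a list of 31 genes chosen after the data were seen, were read in the same edgeR test. Of 27 tested, 7 rose and 1 fell, beside 5.51 and 6.01% of all genes, and the median log2 fold change was 0.10. Only 4 were called higher with upper-quartile factors or library size alone, and 5 with limma-voom. C1qtnf3, a secreted C1q and tumour necrosis factor related protein, was at 1.39 and 1.43 CPM in normoxia and 5.22 and 7.44 CPM in Sugen-hypoxia, 4.48-fold higher (log2 2.16 ± 0.24 SE, adjusted p = 0.00875). Colq, whose collagen tail anchors acetylcholinesterase to the basal lamina of the neuromuscular junction, was at 21.8 and 23.3 CPM against 62.6 and 39.5 CPM, 2.26-fold higher (log2 1.18 ± 0.21 SE, adjusted p = 0.0265). In both genes the treated pools lay above the normoxic pools, and treated replicate 2 was the higher one for C1qtnf3 and the lower one for Colq. The complement chain C1qa, the scavenger receptor Msr1, and C1qtnf6, Emilin1 and Cthrc1 also rose. C1qa (adjusted p = 0.0577 and 0.0582), Msr1 (0.0541 and 0.0524) and C1qtnf6 (0.0581 and 0.0638) lost the call with upper-quartile factors and library size alone, and C1qa (0.0556) and Msr1 (0.0765) also with limma-voom. Emilin2 fell from 44.3 and 49.5 CPM to 26.8 and 34.9 CPM (log2 -0.60 ± 0.14 SE, adjusted p = 0.0468). Without normoxic replicate 1, 0 of the 8 kept the call (adjusted p = 0.0962 to 0.25), and without normoxic replicate 2, 0 did (adjusted p = 0.0896 to 0.265).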
